A study of Mus musculus with 15 samples.

Results

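The genes described here are 46 genes of oxidative defence and glutathione metabolism, measured in the striatum of mouse pups whose mothers had been exposed to aerosols during pregnancy or, for controls, left untreated. They were taken by gene symbol from a table of 15569 genes. The rule used no measured value, but the genes were chosen with earlier results of these data known. The set holds NRF2 and its targets, enzymes that remove superoxide and peroxide, the glutathione and thioredoxin systems, metallothioneins and iron storage. All 46 symbols were present, all 46 passed the filter on low values, and all 46 are annotated as protein coding. The 15 libraries came from C57Bl/6J pups at postnatal day 14. The dams of 3 libraries had been exposed to paraquat, those of 4 to titanium dioxide (TiO2) nanoparticles and those of 4 to a mixture of both, and the 4 control libraries are labelled untreated. Paraquat is a herbicide that cycles between its oxidised and reduced forms and passes electrons to oxygen, and TiO2 nanoparticles are a particulate exposure. The labels give no dose, dam, litter, sex or batch, and do not say whether libraries of a group come from different animals. The p-values therefore cover the spread among these libraries and no more, and that spread may be technical.

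Cells sense oxidants and electrophiles largely through KEAP1, a cysteine-rich protein that holds the transcription factor NRF2 (encoded by Nfe2l2) for degradation until its cysteines are modified. Released NRF2 binds antioxidant response elements with small MAF proteins and raises genes for glutathione synthesis, conjugation, thioredoxin reduction, quinone reduction and haem breakdown. In brain, glutathione synthesis and many of these enzymes are concentrated in astrocytes, while metallothioneins bind zinc and copper and ferritin stores iron.

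The libraries held between 8690925 and 14207513 recovered reads over genes, with paraquat 3 the deepest. Mitochondrially encoded genes took 16.8%, 18.5% and 18.2% of them in paraquat, 16.2% to 20.6% in TiO2, 19.1% to 21% in mixture and 19.7% to 21.8% in control libraries. All paraquat libraries lay below all controls in this share, and its part in the results was not tested. Values are the deposited normalised read counts, meaning the reads of a gene after division by the size factor of its library. Differences are on the log2(value + 1) scale from a limma fit over all 15 libraries and 15556 genes, with Benjamini-Hochberg adjustment over those genes, and a gene is called changed at an adjusted p under 0.05. This scale understates the change of low genes. Of 13 markers of medium spiny neurons, the main neurons of striatum, all 13 were measured and none was at 0 in any library, which does not show that neighbouring tissue was absent. The summed level of 7 markers of cortical glutamatergic neurons was 1337 to 5035 in paraquat, 904 to 2445 in TiO2, 2106 to 4028 in mixture and 556 to 1284 in control libraries. Paraquat and mixture libraries all exceeded the controls in that sum, and none of these 7 markers was at 0 in any library. In such bulk tissue, fewer cells of a type and less RNA per cell cannot be told apart.

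The defence genes differed widely in level. Per kilobase of annotated exon, the control mean was 2472 normalised reads for Fth1, the ferritin heavy chain that oxidises and stores iron. Mt1, a metallothionein, followed at 2214, and Gpx1, the cytosolic glutathione peroxidase, at 1773. At the other end, Txnrd2, the mitochondrial thioredoxin reductase, had 3.55 per kilobase and Gss, glutathione synthetase, had 5.33. The median of all genes was 39.3 per kilobase, and 35 of the 46 genes lay above it. The coefficient of variation within groups ran from 4.03% for Prdx6 to 25.5% for Gstp1, with a median of 10.8%.

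**Figure D1:**
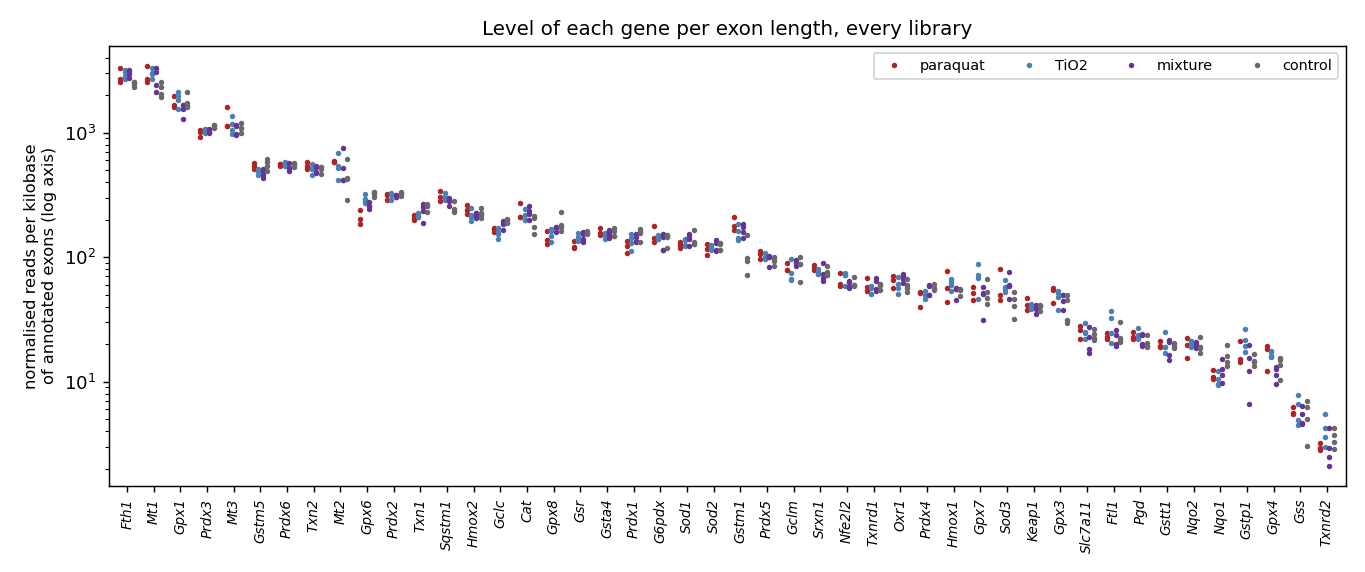
Level of each of the 46 genes in every library, in normalised reads per kilobase of annotated exons on a log axis, with genes ordered from high to low and points coloured by group. Fth1 and Mt1 lie highest and Txnrd2 lowest, and for most genes the points of the 4 groups overlap.

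Most of the 46 genes did not pass the test in any exposure. In paraquat libraries Gstm1 and Sqstm1 rose and Gpx6, Gsr and Gpx8 fell, which is 5 of 46 genes or 10.9%, against 10.4% of all genes tested. Of all genes 6.34% were called higher and 4.06% lower in paraquat libraries. In TiO2 libraries Gstm1, Mt1 and Sqstm1 rose and Gclc fell, which is 4 of 46 or 8.7%, against 6.4% of all genes, with 4.3% called higher and 2.1% lower. In mixture libraries Gstm1 alone passed, 1 of 46 or 2.17%, against 1.19% of all genes, with 1.12% called higher and 0.0707% lower. These shares are close to the background, so the counts of calls do not set the 46 genes apart from other genes. Unadjusted limma p was under 0.05 for 15 of the 46 in paraquat (32.6%), and for 10 each in TiO2 and mixture libraries (21.7%). Of all genes, 26.6%, 23.3% and 12.2% had such a p. The share of the 46 was thus higher in mixture libraries, and whether this exceeds chance was not tested.

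The differences were small for most of the set. Between −0.25 and 0.25 on the log2 scale lay 31 genes in paraquat, 33 in TiO2 and 37 in mixture libraries. The median difference was 0.04 in paraquat, where the median of all genes was −0.007. It was 0.031 in TiO2 and −0.044 in mixture libraries, where the medians of all genes were −0.01 and −0.009. The libraries of paraquat and control did not overlap for 9 of the 46 genes, against 21.2% of all genes. For TiO2 this count was 10 of 46, a higher share than the 12.5% of all genes. For the mixture it was 3 of 46, against 7.75%. All 3 of these comparisons use the same 4 control libraries.

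**Figure D2:**
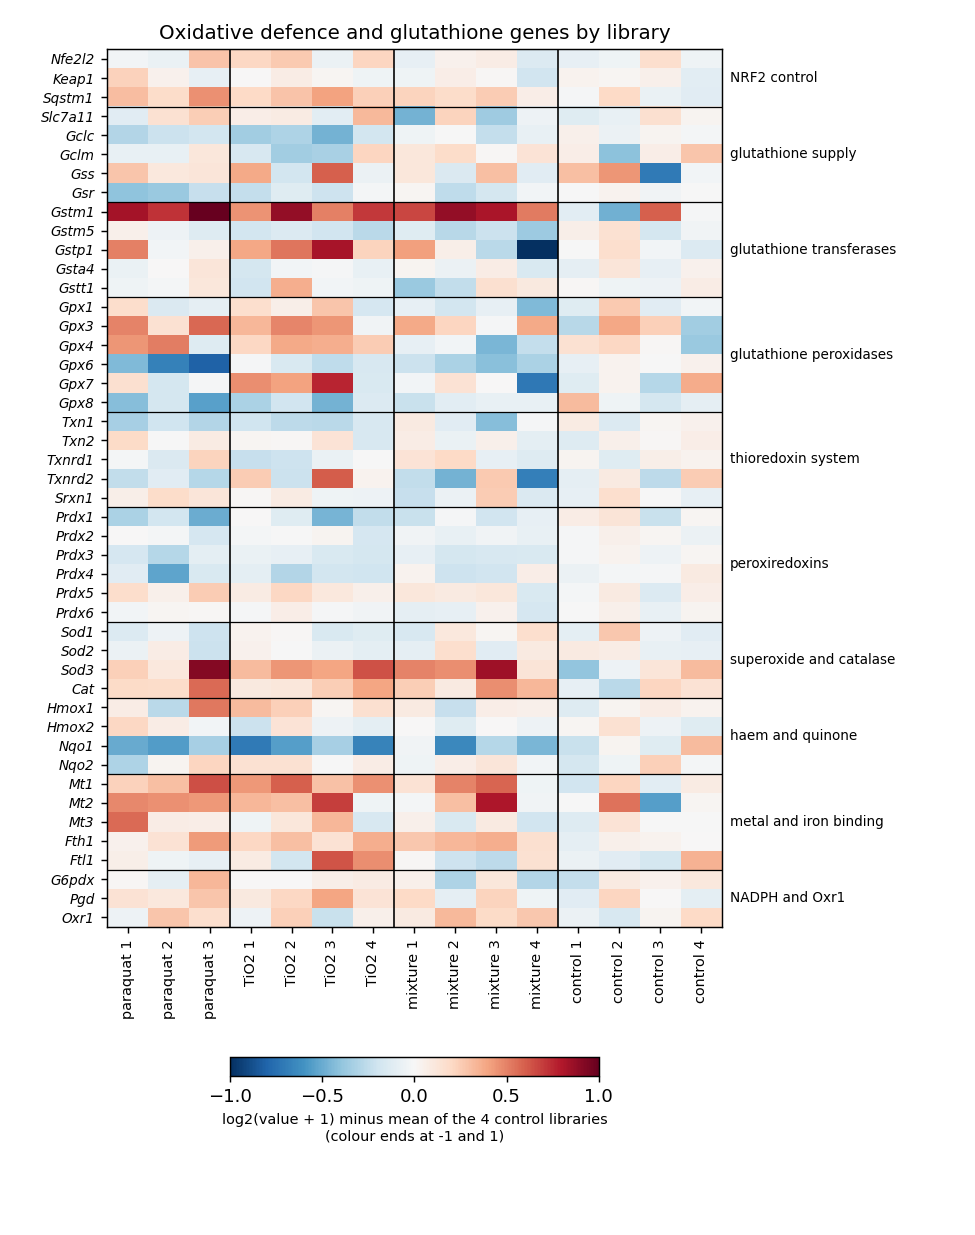
Each row is a gene, grouped by role, and each column a library, with paraquat, TiO2 and mixture libraries left of the controls. Colour is log2(value + 1) minus the mean of the 4 control libraries: Gstm1 is red in all 11 exposed libraries, and Gpx6 is blue in all 3 paraquat libraries.

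**Figure D3:**
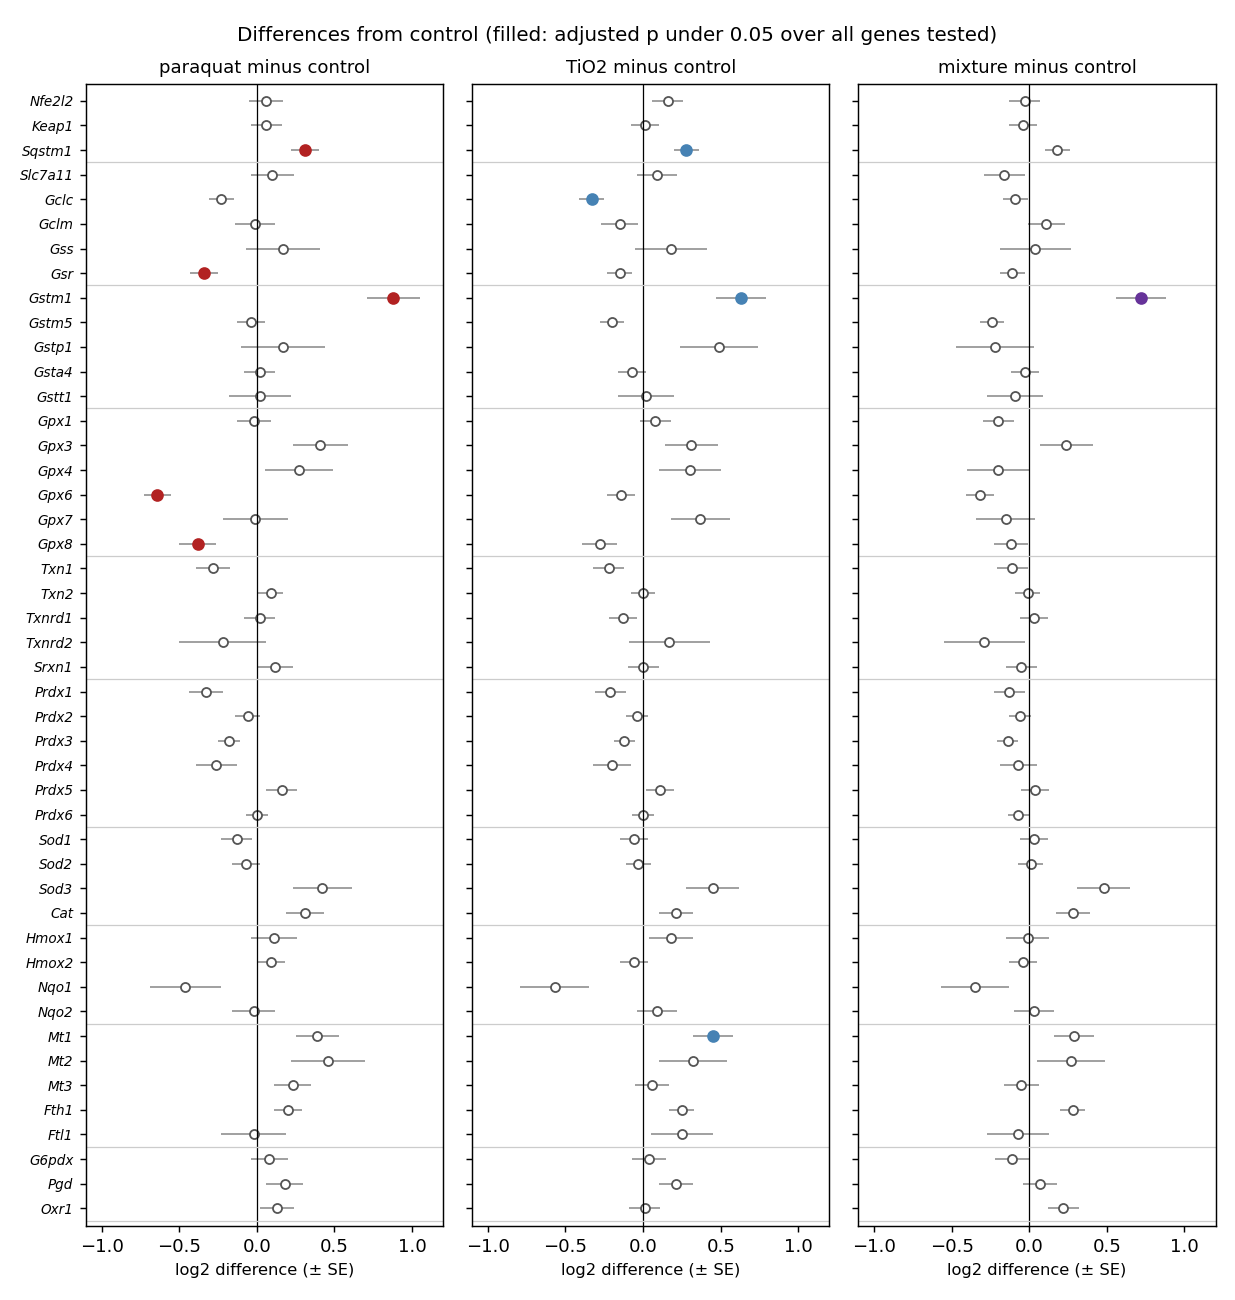
Log2 difference from control with its standard error for each of the 46 genes under paraquat, TiO2 and mixture, left to right, with filled points for an adjusted p under 0.05. Filled points number 5, 4 and 1, and most open points lie within 0.25 of 0.

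Cell type markers and base composition also moved between the groups. The summed level of 12 oligodendrocyte markers was 91590 to 105600 in paraquat, 57090 to 89920 in TiO2, 49310 to 85050 in mixture and 41620 to 62010 in control libraries. Of these 12 markers 10 rose in paraquat libraries and 1 in TiO2 libraries. The 8 markers of oligodendrocyte precursors summed to 8339 to 9675 in paraquat, 7772 to 10160 in TiO2, 7164 to 8009 in mixture and 6790 to 7413 in control libraries, and 4 rose in paraquat and 3 in TiO2 libraries. Of the 7 cortical markers given above, 1 rose in paraquat libraries, and the median log2 difference of the list was 1.171 in paraquat, 0.629 in TiO2 and 1.467 in mixture libraries. The summed level of 12 astrocyte markers was 49250 to 60250 in paraquat, 55290 to 59210 in TiO2, 49190 to 60740 in mixture and 49390 to 55800 in control libraries, and 2 of the 12 rose in paraquat and 3 in TiO2 libraries. The 13 medium spiny neuron markers summed to 82010 to 90750 in paraquat, 87990 to 97440 in TiO2, 81700 to 95100 in mixture and 95530 to 104500 in control libraries, and 5 fell in paraquat and 2 in TiO2 libraries. No marker of these lists was at 0 in any library.

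The 10 microglial markers summed to 5668 to 6707 in paraquat, 6266 to 6586 in TiO2, 5360 to 6084 in mixture and 5689 to 6895 in control libraries. Across genes, the correlation of a library's deviation from the mean with transcript GC content averaged 0.209 in paraquat, 0.143 in TiO2, −0.1 in mixture and −0.205 in control libraries, and genes are not independent replicates. Single libraries overlapped, from 0.02 to 0.333 in paraquat, −0.118 to 0.452 in TiO2, −0.276 to 0.085 in mixture and −0.378 to 0.07 in control libraries. Among the members that passed, the 3 that rose have a GC content of 53.6% (Gstm1), 54.0% (Sqstm1) and 52.9% (Mt1). The 4 that fell have 48.1% (Gpx6), 50.1% (Gsr), 47.7% (Gclc) and 44.3% (Gpx8). Members that did not pass held the highest and lowest contents, with 62.3% (Mt3) and 60.2% (Gpx4) at one end and 40.7% (Slc7a11) and 42.1% (Gclm) at the other. The part of the cell types in the results below was not tested. With a GC trend removed from each library, 6 of the 10 calls against control were lost, and each kept its direction. The differences of those 6 were then 0.22 for Sqstm1 and −0.28 for Gpx8 in paraquat, 0.56 for Gstm1, 0.38 for Mt1 and 0.20 for Sqstm1 in TiO2, and 0.70 for Gstm1 in mixture libraries.

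Of the 3 members grouped under NRF2 control, Sqstm1 passed in both single exposures, while Nfe2l2 and Keap1 did not pass in any. Sqstm1 encodes p62, an autophagy receptor that binds KEAP1 and is itself an NRF2 target (chr11:50199366-50210827 in GRCm38, minus strand). It had 1030.1, 945 and 1144 normalised reads in paraquat, 959, 1018, 1101 and 981 in TiO2, 973, 948, 996 and 872 in mixture, and 825, 956, 796 and 769 in control libraries. All 4 TiO2 libraries exceeded all 4 controls, while 1 paraquat library and 2 mixture libraries lay below the highest control. Sqstm1 rose by 0.31 ± 0.09 in paraquat and 0.28 ± 0.08 in TiO2 libraries (log2, SE; limma adjusted p = 0.0261 and 0.0387), and differed by 0.18 ± 0.08 in mixture libraries (adjusted p = 0.352).

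Both Sqstm1 calls were sensitive to single libraries. Leaving out control 1, control 3, control 4, paraquat 1 or paraquat 3 ended the paraquat call, with limma adjusted p up to 0.136. The TiO2 call was lost without control 1, 3 or 4 or TiO2 2 or 3, with adjusted p up to 0.131. After removal of the GC trend the differences were 0.22 in paraquat and 0.20 in TiO2 libraries (adjusted p = 0.0503 and 0.0715). Exons of Sqstm1 overlap Mrnip on the other strand, and use of strand in counting is not given in the sources used here. Mrnip averaged 40.8 ± 1.24 in paraquat (SD, n = 3), 33.7 ± 6.13 in TiO2, 34.2 ± 3.91 in mixture and 34.5 ± 8.74 in control libraries (SD, n = 4 each).

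Nfe2l2, which encodes NRF2, had 230.2, 223 and 286 normalised reads in paraquat, 271, 282, 225 and 271 in TiO2, 221, 242, 247 and 213 in mixture, and 222, 227, 263 and 228 in control libraries. The groups overlapped in each comparison. The log2 differences from control were 0.06 ± 0.11, 0.16 ± 0.10 and −0.03 ± 0.10 in paraquat, TiO2 and mixture libraries (SE; limma adjusted p = 0.753, 0.366 and 0.951). Keap1 had 219, 193 and 176 in paraquat, 187, 196, 189 and 181 in TiO2, 181, 195, 188 and 163 in mixture, and 192, 189, 194 and 173 in control libraries. Its groups overlapped too, with differences of 0.06 ± 0.10, 0.01 ± 0.09 and −0.04 ± 0.09 (limma adjusted p = 0.733, 0.958 and 0.92).

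Promoter sequence is shown for some of the genes, so that the elements named above can be seen. Gstm1, Sqstm1 and Mt1 were called, and Prdx1, Gclm and Mt2 are textbook NRF2 or metal targets that were not. The 250 bases before 1 start of each gene were taken from a set of RefSeq promoters (GRCm38.p6) and are written 5′ to 3′ on the gene's strand. That set held 39 of the 46 members. The other 7, Gclc, Gsr, Hmox1, Prdx6, Sod3, Gsta4 and Oxr1, were not searched. Where a gene has several starts, the one nearest its outermost start in GENCODE was used, and sequence downstream of it was not searched. Both strands were searched for the antioxidant response element core TGACNNNGC and for a metal response element core, TGCACNC or TGCGCNC. The antioxidant core occurred in 7 of the 39 promoters (17.9%), against 10.2% of all 32851 promoters in the set. The metal core occurred in 11 of the 39 (28.2%), against 21.4%. The full set was not reduced to 1 start per gene or to genes measured here, so these shares come from unlike sets. Gpx6 and Gpx8, which were called but are not printed, held 0 matches to either core. The promoters of Gstm1 (chr3:108017974-108018223, minus strand) and Sqstm1 (chr11:50210821-50211070, minus strand) hold no antioxidant core in this window:
Gstm1: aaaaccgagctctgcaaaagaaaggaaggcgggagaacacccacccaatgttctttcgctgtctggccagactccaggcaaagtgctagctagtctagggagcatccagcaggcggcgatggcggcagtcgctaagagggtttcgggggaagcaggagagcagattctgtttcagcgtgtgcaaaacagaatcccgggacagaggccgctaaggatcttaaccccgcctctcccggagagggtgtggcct
Sqstm1: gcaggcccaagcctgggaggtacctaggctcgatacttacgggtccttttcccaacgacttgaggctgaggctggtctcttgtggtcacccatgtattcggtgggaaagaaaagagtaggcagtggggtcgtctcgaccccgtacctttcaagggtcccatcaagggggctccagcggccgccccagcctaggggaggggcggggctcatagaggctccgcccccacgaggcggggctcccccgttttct
Prdx1 (chr4:116685349-116685598, plus strand) and Gclm (chr3:122245307-122245556, plus strand) each hold 1 match to the antioxidant core, shown in capitals, 133 and 134 bases before the start:
Prdx1: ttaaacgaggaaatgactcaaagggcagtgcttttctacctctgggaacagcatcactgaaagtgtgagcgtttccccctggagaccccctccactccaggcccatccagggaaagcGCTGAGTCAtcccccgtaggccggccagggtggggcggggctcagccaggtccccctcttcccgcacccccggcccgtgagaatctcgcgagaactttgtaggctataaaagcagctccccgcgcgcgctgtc
Gclm: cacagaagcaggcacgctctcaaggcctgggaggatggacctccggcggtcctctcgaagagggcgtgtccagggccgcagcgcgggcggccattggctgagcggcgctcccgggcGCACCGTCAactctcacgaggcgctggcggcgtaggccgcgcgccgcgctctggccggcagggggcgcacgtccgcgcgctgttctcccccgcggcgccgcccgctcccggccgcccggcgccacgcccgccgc
Mt1 (chr8:94178839-94179088, plus strand) holds 1 match to the metal core, 23 bases before the start, and Mt2 (chr8:94172368-94172617, plus strand) holds 3, at 223, 128 and 50 bases, all in capitals:
Mt1: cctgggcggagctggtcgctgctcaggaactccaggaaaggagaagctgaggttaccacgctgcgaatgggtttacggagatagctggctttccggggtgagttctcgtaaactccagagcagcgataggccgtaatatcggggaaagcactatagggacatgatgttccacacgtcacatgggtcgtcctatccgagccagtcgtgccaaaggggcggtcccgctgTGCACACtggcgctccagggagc
Mt2: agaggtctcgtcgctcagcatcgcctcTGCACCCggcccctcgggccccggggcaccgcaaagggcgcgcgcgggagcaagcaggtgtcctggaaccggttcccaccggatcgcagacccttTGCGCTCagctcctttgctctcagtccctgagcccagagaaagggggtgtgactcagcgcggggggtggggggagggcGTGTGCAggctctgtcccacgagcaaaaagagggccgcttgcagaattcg
A match is a description of letters and does not show binding. The counts, such as the 1 match of Mt1, hold for the printed windows only, and elements beside other starts of a gene would be missed.

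Genes that supply and recycle glutathione showed 2 members that fell and none that rose past the threshold. Gclc, the catalytic subunit of glutamate-cysteine ligase and the rate-limiting enzyme of glutathione synthesis (chr9:77754535-77794485, plus strand), had 602, 635 and 648 normalised reads in paraquat, 580.0, 595, 532 and 650.4 in TiO2, 714, 733, 625 and 700.2 in mixture, and 765, 708, 750.1 and 727 in control libraries. Every paraquat and every TiO2 library lay below the lowest control, while mixture libraries overlapped the controls. Gclc fell by 0.33 on the log2 scale in TiO2 libraries (SE 0.08, limma adjusted p = 0.0121), a call kept without each library in turn. The differences were −0.23 ± 0.08 in paraquat and −0.09 ± 0.08 in mixture libraries (adjusted p = 0.0744 and 0.695).

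Gsr, glutathione reductase, which returns oxidised glutathione to its reduced form (chr8:33652523-33698163, plus strand), had 327, 335 and 369 normalised reads in paraquat, 368, 399, 376 and 428 in TiO2, 441, 364, 384 and 425 in mixture, and 433, 445, 424 and 433 in control libraries. All 3 paraquat libraries lay below the lowest control of 424, and the TiO2 and mixture libraries overlapped the controls. Gsr fell by 0.34 in paraquat libraries (SE 0.09, limma adjusted p = 0.0191), and the adjusted p was 0.0896 without paraquat 1. The differences in TiO2 and mixture libraries were −0.15 ± 0.08 and −0.11 ± 0.08 (adjusted p = 0.293 and 0.653).

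The remaining genes of this supply did not pass. Gclm, the modifier subunit of glutamate-cysteine ligase, had 500.2, 498 and 568 in paraquat, 470.0, 414, 419 and 611 in TiO2, 568, 598, 531 and 578 in mixture, and 552, 395, 550.0 and 637 in control libraries. The control libraries, from 395 to 637, enclosed all 11 exposed libraries. The differences were −0.01 ± 0.13, −0.15 ± 0.12 and 0.11 ± 0.12 in paraquat, TiO2 and mixture libraries (limma adjusted p = 0.965, 0.48 and 0.786). Slc7a11, the cystine importer xCT, had 305, 365 and 392 in paraquat, 344, 349, 306 and 413 in TiO2, 237, 385, 257 and 319 in mixture, and 304, 313, 369 and 336 in control libraries. Mixture libraries 1 and 3 were its lowest, and the groups overlapped throughout. Its differences were 0.10 ± 0.14, 0.09 ± 0.13 and −0.16 ± 0.13 (limma adjusted p = 0.7, 0.711 and 0.659). Gss averaged 34.0 ± 2.33 in paraquat (SD, n = 3) and 31.5 ± 10.2 in control libraries (SD, n = 4).

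Among the glutathione transferases, which join glutathione to electrophiles, Gstm1 changed in all 3 exposures and the other 4 members did not pass in any. Gstm1 (chr3:108012255-108017973, minus strand) had 263, 244 and 310.1 normalised reads in paraquat, 201, 270.4, 209 and 241 in TiO2, 234, 271, 259 and 211 in mixture, and 137, 105, 222 and 145 in control libraries. The 3 paraquat libraries lay above every control, and control 3, at 222, lay among the TiO2 and mixture libraries. Group means were 272 ± 34.2 in paraquat (SD, n = 3), 230.3 ± 31.8 in TiO2, 244 ± 26.9 in mixture and 152 ± 49.7 in control libraries (SD, n = 4 each).

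Gstm1 rose by 0.88 ± 0.17 in paraquat, 0.63 ± 0.16 in TiO2 and 0.72 ± 0.16 in mixture libraries (log2, SE; limma adjusted p = 0.00448, 0.0226 and 0.0328). The paraquat call was kept without each library in turn and under each alternative processing. The TiO2 call was lost without control 1 or 4 or TiO2 2 or 3 (limma adjusted p up to 0.079), and the mixture call without control 1, 2 or 4 or mixture 1, 2 or 3 (up to 0.115). With the GC trend removed, both were lost while the differences stayed at 0.56 in TiO2 and 0.70 in mixture libraries (adjusted p = 0.0882 and 0.0741). Gstm1 belongs to a family of similar genes. Gstm4, Gstm6 and Gstm7 did not pass, with differences in paraquat libraries of 0.47 ± 0.28, −0.06 ± 0.19 and 0.59 ± 0.21 (limma adjusted p = 0.291, 0.879 and 0.0641).

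The other transferases were Gstm5, Gstp1, Gsta4 and Gstt1. Gstm5 averaged 692 ± 42.4 in paraquat (SD, n = 3), 622 ± 24.4 in TiO2, 602 ± 42.9 in mixture and 714 ± 68.5 in control libraries (SD, n = 4 each). Gstp1 was low, with 32.7, 22.3 and 23.7 in paraquat, 30.1, 33.5, 41.1 and 26.9 in TiO2, 30.7, 23.9, 18.7 and 10.3 in mixture, and 22.8, 25.8, 22.3 and 20.6 in control libraries. The TiO2 libraries lay above all controls, with a difference of 0.49 ± 0.25 (limma adjusted p = 0.24), and mixture 4 was the lowest library. The differences were 0.17 ± 0.27 in paraquat and −0.22 ± 0.25 in mixture libraries (adjusted p = 0.723 and 0.797). GENCODE lists the near copies Gstp2, Gstp3 and Gstp-ps, which are not used here, so reads of Gstp1 are uncertain. Gsta4 and Gstt1 differed from control by at most 0.09 in either direction.

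The glutathione peroxidases reduce hydrogen peroxide and lipid peroxides, and 2 of 6 fell in paraquat libraries, where 4.06% of all genes fell. Gpx6, a peroxidase related to Gpx3 (chr13:21312125-21319624, plus strand), had 326, 277 and 253 normalised reads in paraquat, 439.9, 399.6, 372 and 396 in TiO2, 381, 355, 331 and 355 in mixture, and 419, 455, 443 and 457 in control libraries. All paraquat libraries lay below every TiO2, mixture and control library, and all mixture libraries lay below every control. Gpx6 averaged 285 ± 37.5 in paraquat (SD, n = 3), 402 ± 28.1 in TiO2, 355 ± 20.6 in mixture and 443 ± 17.7 in control libraries (SD, n = 4 each).

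Gpx6 fell by 0.64 in paraquat libraries (SE 0.09, limma adjusted p = 0.000247), and this call was kept without each library and under each alternative processing. The differences were −0.14 ± 0.09 in TiO2 and −0.32 ± 0.09 in mixture libraries (adjusted p = 0.332 and 0.0719). Gpx8, a peroxidase of the endoplasmic reticulum (chr13:113042753-113046410, minus strand), had 144, 171 and 133 in paraquat, 156, 169.8, 139 and 176 in TiO2, 166, 180.1, 184 and 184 in mixture, and 241, 189, 171 and 182 in control libraries. Control 1 was the highest library, and paraquat 2 and control 3 shared a value near 171. Gpx8 fell by 0.38 in paraquat libraries (SE 0.12, limma adjusted p = 0.0475), and differed by −0.28 ± 0.11 and −0.12 ± 0.11 in TiO2 and mixture libraries (adjusted p = 0.135 and 0.737). Leaving out control 1, control 2, control 4, paraquat 1 or paraquat 3 ended the paraquat call (adjusted p up to 0.189), as did removal of the GC trend (difference −0.28, adjusted p = 0.129).

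**Figure D4:**
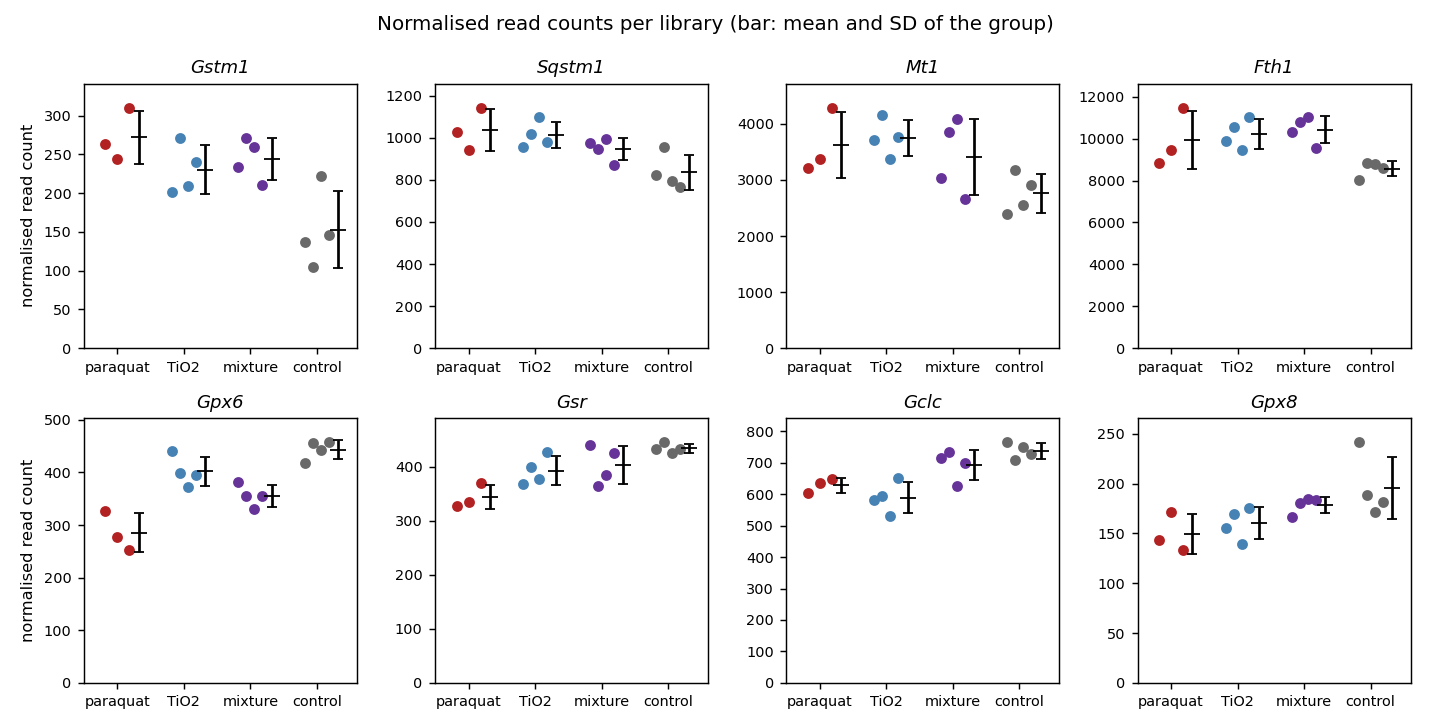
Normalised read counts of 8 genes in every library (points) with the mean and SD of each group (bars), in the order paraquat, TiO2, mixture and control. In the upper row Gstm1, Sqstm1, Mt1 and Fth1 have means above control in all 3 exposures. In the lower row Gpx6, Gsr, Gclc and Gpx8 have means below it.

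The other peroxidases did not pass. Gpx1 had 2870.0, 2299 and 2388 in paraquat, 2850.2, 2640.3, 3069.8 and 2256 in TiO2, 2403, 2230.3, 2400.3 and 1870.4 in mixture, and 2339, 3045, 2348 and 2486 in control libraries. The groups overlapped, and the differences were −0.02 ± 0.11, 0.08 ± 0.10 and −0.20 ± 0.10 in paraquat, TiO2 and mixture libraries (limma adjusted p = 0.938, 0.684 and 0.466). Gpx4, the phospholipid peroxidase that guards against ferroptosis, was listed low, at 31.8, 33.5 and 21.1 in paraquat, 27.0, 30.5, 30.1 and 27.8 in TiO2, 21.8, 22.8, 16.6 and 19.5 in mixture, and 25.9, 26.8, 23.4 and 17.7 in control libraries. All 4 TiO2 libraries lay above all controls. The differences of Gpx4 were 0.27 ± 0.22, 0.30 ± 0.20 and −0.20 ± 0.20 (limma adjusted p = 0.455, 0.39 and 0.765), and a copy, Gpx4-ps2, makes its reads uncertain. Gpx7, of the endoplasmic reticulum, had 74.4, 58.9 and 65.8 in paraquat, 92.3, 88.5, 113 and 59.7 in TiO2, 65.4, 73.8, 66.6 and 40.1 in mixture, and 61.1, 68.1, 54.3 and 86.5 in control libraries. TiO2 3 was its highest library and mixture 4 its lowest, and the groups overlapped. Its differences were −0.01 ± 0.21, 0.37 ± 0.19 and −0.15 ± 0.19 (limma adjusted p = 0.984, 0.255 and 0.831). Gpx3, the secreted plasma form, differed by 0.41 ± 0.18, 0.31 ± 0.17 and 0.24 ± 0.17 (limma adjusted p = 0.143, 0.273 and 0.614).

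The 5 thioredoxin genes and 6 peroxiredoxins gave 0 calls in limma against control in each exposure. Unadjusted p was under 0.05 for 4 of these 11 genes in paraquat libraries, and edgeR and DESeq2 each called 1 of them, Prdx1, there. In TiO2 and mixture libraries 1 gene each had an unadjusted p under 0.05, and edgeR and DESeq2 called 0. Of all genes, 26.6% in paraquat, 23.3% in TiO2 and 12.2% in mixture libraries had an unadjusted limma p under 0.05. Txnrd1, the cytosolic thioredoxin reductase, had 411, 376 and 485 in paraquat, 356, 361, 398 and 416 in TiO2, 459, 478, 394 and 380.5 in mixture, and 426, 384, 433 and 427 in control libraries. Srxn1, sulfiredoxin, which repairs overoxidised peroxiredoxins, had 222, 243 and 232 in paraquat, 216, 227, 208 and 207 in TiO2, 182, 205, 255 and 193 in mixture, and 202, 240.5, 214 and 202 in control libraries. Both are textbook NRF2 targets, and their groups overlapped in every comparison with control. Txnrd1 differed by 0.02 ± 0.10, −0.13 ± 0.09 and 0.03 ± 0.09 in paraquat, TiO2 and mixture libraries (limma adjusted p = 0.937, 0.445 and 0.938). Srxn1 differed by 0.12 ± 0.11, 0.00 ± 0.10 and −0.05 ± 0.10 (limma adjusted p = 0.523, 0.994 and 0.911).

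Prdx1, a cytosolic peroxiredoxin and NRF2 target whose promoter carries the core shown above, came nearest to the threshold among the uncalled genes. It had 377, 413 and 332 normalised reads in paraquat, 469, 430.1, 340.2 and 396 in TiO2, 401, 464, 409.9 and 443 in mixture, and 494, 513, 401 and 475 in control libraries. Paraquat 2 lay above control 3, so the groups overlapped. The differences were −0.33 ± 0.11, −0.21 ± 0.10 and −0.13 ± 0.10 in paraquat, TiO2 and mixture libraries (limma adjusted p = 0.0521, 0.217 and 0.666). Prdx3, the mitochondrial peroxiredoxin, had 1489.6, 1369.9 and 1565 in paraquat, 1593, 1575, 1499 and 1481 in TiO2, 1582, 1477, 1496 and 1501 in mixture, and 1659, 1713, 1617 and 1696 in control libraries. All 11 exposed libraries lay below all 4 controls, but the differences of −0.18 ± 0.07, −0.12 ± 0.07 and −0.14 ± 0.07 did not pass (limma adjusted p = 0.105, 0.283 and 0.385). The values of Prdx3 are given because of that separation, seen after the values were known. Txn1, thioredoxin, differed by −0.28 ± 0.11 in paraquat libraries (limma adjusted p = 0.0975).

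Superoxide dismutases turn superoxide into hydrogen peroxide, and catalase breaks hydrogen peroxide down. These 4 genes gave 0 calls in limma, edgeR and DESeq2 in each exposure. Unadjusted limma p was under 0.05 for 2, 1 and 2 of them in paraquat, TiO2 and mixture libraries. Of all genes, 26.6%, 23.3% and 12.2% had such a p there. Sod1, the cytosolic copper and zinc enzyme, had 496, 527 and 472 in paraquat, 560.3, 550.0, 489.7 and 501 in TiO2, 489, 586, 554 and 612 in mixture, and 509, 657, 526 and 503 in control libraries. Sod2, the mitochondrial manganese enzyme, had 1164, 1279 and 1049 in paraquat, 1250.3, 1209, 1165 and 1138 in TiO2, 1145, 1364, 1125 and 1293 in mixture, and 1291, 1282, 1151 and 1145 in control libraries. The groups overlapped for both genes. Sod1 differed by −0.13 ± 0.10, −0.06 ± 0.09 and 0.03 ± 0.09 and Sod2 by −0.07 ± 0.09, −0.03 ± 0.08 and 0.01 ± 0.08 in paraquat, TiO2 and mixture libraries, with limma adjusted p from 0.419 to 0.971. Cat had 553, 551 and 718 in paraquat, 519, 524, 575 and 636 in TiO2, 576, 515, 668 and 611 in mixture, and 457, 401, 563 and 535 in control libraries. Its lowest values were in controls, and control 3 lay within the range of each exposed group. Its differences were 0.31 ± 0.12, 0.21 ± 0.11 and 0.28 ± 0.11 (limma adjusted p = 0.0891, 0.25 and 0.26). Sod3, the extracellular enzyme, differed by 0.42 ± 0.19, 0.45 ± 0.17 and 0.48 ± 0.17 (limma adjusted p = 0.158, 0.126 and 0.226).

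Hmox1 and Nqo1, both widely read as NRF2 targets, did not rise past the threshold. The 4 genes of haem and quinone reduction gave 0 calls in limma, edgeR and DESeq2 in each exposure. An unadjusted limma p under 0.05 was seen for 1 of them, in TiO2 libraries, where 23.3% of all genes had one. Hmox1, the inducible haem oxygenase, had 98.2, 77.1 and 135 in paraquat, 116, 109.8, 94.3 and 104 in TiO2, 99.0, 79.2, 97.8 and 96.7 in mixture, and 84.9, 94.9, 97.9 and 95.3 in control libraries. Paraquat 3 was the highest library and paraquat 2 the lowest. The differences were 0.11 ± 0.15, 0.18 ± 0.14 and −0.01 ± 0.14 in paraquat, TiO2 and mixture libraries (limma adjusted p = 0.678, 0.458 and 0.993). Nqo1, which reduces quinones, was low, with 16.9, 16.2 and 19.1 in paraquat, 14.5, 16.3, 19.1 and 14.9 in TiO2, 23.8, 15.2, 19.8 and 17.5 in mixture, and 20.7, 24.8, 22.3 and 30.5 in control libraries. All paraquat and TiO2 libraries lay below all controls, and 3 of 4 mixture libraries did. The differences of −0.46 ± 0.23, −0.57 ± 0.22 and −0.35 ± 0.22 did not pass (limma adjusted p = 0.206, 0.114 and 0.549). Hmox2, the constitutive haem oxygenase, and Nqo2 differed from control by at most 0.09 in either direction.

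Among metal and iron binding genes, Mt1 rose in TiO2 libraries. Mt1 (chr8:94179082-94180327, plus strand) had 3208, 3378 and 4289.8 normalised reads in paraquat, 3706, 4153, 3367 and 3758 in TiO2, 3027, 3859.6, 4096 and 2661 in mixture, and 2396, 3186, 2551 and 2902 in control libraries. All paraquat and TiO2 libraries exceeded all controls, and mixture 1 and 4 lay among the controls. Mt1 rose by 0.45 ± 0.13 in TiO2 libraries (log2, SE; limma adjusted p = 0.0378). The differences in paraquat and mixture libraries were 0.39 ± 0.14 and 0.29 ± 0.13 (adjusted p = 0.0688 and 0.33). The TiO2 call was lost without control 1, 3 or 4 or any single TiO2 library (adjusted p up to 0.123). With the GC trend removed it was lost with a difference of 0.38 (adjusted p = 0.11).

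Mt2, the neighbouring metallothionein, had 350.3, 344 and 339 in paraquat, 315, 309, 405 and 244 in TiO2, 248, 308, 440.1 and 245 in mixture, and 249.7, 364, 170.2 and 254 in control libraries. Control libraries ranged from 170.2 to 364, and each exposed group overlapped them. Its differences were 0.46 ± 0.24, 0.32 ± 0.22 and 0.27 ± 0.22 in paraquat, TiO2 and mixture libraries (limma adjusted p = 0.245, 0.418 and 0.699). Mt3, the metallothionein of brain, had 1715, 1218 and 1209.6 in paraquat, 1121, 1253, 1460.1 and 1034 in TiO2, 1199, 1040.3, 1229.8 and 1014 in mixture, and 1058, 1270.4, 1156 and 1155 in control libraries. Paraquat 1 was its highest library, and its differences were 0.23 ± 0.12, 0.06 ± 0.11 and −0.05 ± 0.11 (limma adjusted p = 0.215, 0.789 and 0.908).

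Fth1 had 8826, 9452 and 11483 normalised reads in paraquat, 9875, 10579, 9460.3 and 11045 in TiO2, 10336, 10801, 11044 and 9567 in mixture, and 8035, 8859.8, 8796 and 8611 in control libraries. All TiO2 and mixture libraries exceeded all controls, and paraquat 1 lay below the highest control. The differences were 0.20 ± 0.09, 0.25 ± 0.08 and 0.28 ± 0.08 in paraquat, TiO2 and mixture libraries (limma adjusted p = 0.129, 0.0535 and 0.0827). With the GC trend removed Fth1 passed in TiO2 and mixture libraries, with limma adjusted p of 0.0342 and 0.0326. GENCODE lists the copies Fth-ps2 and Fth-ps3, and their part in the reads of Fth1 was not tested. Ftl1, the ferritin light chain, lay between 26.0 and 49.2 in all 15 libraries, and GENCODE lists the copies Ftl1-ps1 and Ftl1-ps2, so its level is uncertain. G6pdx and Pgd, which make NADPH, and Oxr1, an oxidation resistance gene, gave 0 calls in limma, edgeR and DESeq2 in each exposure. An unadjusted limma p under 0.05 was seen for 1 of these 3 genes, in mixture libraries, where 12.2% of all genes had one.

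Between the exposed groups no member passed. Mixture against paraquat called 0 of 46 genes in limma, edgeR and DESeq2, against 0.00643% of all genes in limma. Unadjusted limma p was under 0.05 for 6 of the 46 (13.0%), against 14.4% of all genes. Here Gpx6 had the smallest p, 0.32 ± 0.09 higher on the log2 scale in mixture than in paraquat libraries (limma adjusted p = 0.172). Gsr differed by 0.23 ± 0.09 and Mt3 by −0.29 ± 0.12 (limma adjusted p = 0.255 and 0.282). Mixture and paraquat libraries did not overlap for 1 of the 46 genes, Gpx6, against 13.8% of all genes.

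Mixture against TiO2 also called 0 of 46 genes in limma, edgeR and DESeq2, against 0.0% of all genes in limma. Unadjusted limma p was under 0.05 for 7 of the 46 (15.2%), against 11.4% of all genes. Gclc differed by 0.24 ± 0.08, Gstp1 by −0.71 ± 0.25 and Gpx7 by −0.52 ± 0.19 between mixture and TiO2 libraries (limma adjusted p = 0.261, 0.296 and 0.33). Mixture and TiO2 libraries did not overlap for 1 gene, Gpx4, against 6.71% of all genes. Paraquat against TiO2 called 0 of 46 in limma, against 0.0% of all genes, 0 in edgeR and 1 in DESeq2. Unadjusted limma p was under 0.05 for 2 of the 46 (4.35%), against 6.41% of all genes. Gpx6 differed by −0.50 ± 0.09 between paraquat and TiO2 libraries, Gsr by −0.19 ± 0.09 and Gpx7 by −0.38 ± 0.21 (limma adjusted p = 0.119, 0.761 and 0.845). Paraquat and TiO2 libraries did not overlap for 2 genes, Gpx6 and Gstm5, against 5.81% of all genes.

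Whether the mixture difference equals the sum of both single differences was asked with the interaction, mixture minus paraquat minus TiO2 plus control. The labels give no dose, so the mixture is not known to hold each agent at its single-exposure dose. The same control libraries enter the single differences and the interaction with opposite sign, and their part was not tested. The interaction passed for 6 of the 46 genes (13.0%), against 11.8% of all genes, a share close to the background. It was positive for 4 of the 6 and negative for 2, against 5.41% and 6.36% of all genes. The largest in size was Gstm1, with 0.72 in the mixture against a sum of 1.51, an interaction of −0.79 ± 0.24 (limma adjusted p = 0.0362). Gclc had −0.09 in the mixture against a sum of −0.56, an interaction of 0.47 ± 0.11 (limma adjusted p = 0.011), and was the member whose call was kept without each library and under each alternative.

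The other 4 were Gpx6, Sqstm1, Gpx8 and Gsr. Their interactions were 0.46 ± 0.13, −0.41 ± 0.12, 0.54 ± 0.17 and 0.37 ± 0.12 (limma adjusted p = 0.023, 0.0288, 0.037 and 0.0453). The Gpx6 call was lost without paraquat 3 (adjusted p = 0.0729), and those of Gstm1, Sqstm1, Gpx8 and Gsr without several libraries, with adjusted p up to 0.0938, 0.0877, 0.103 and 0.117. With the GC trend removed, the interactions of Gstm1, Sqstm1 and Gpx8 were −0.66, −0.26 and 0.38 and no longer passed (adjusted p = 0.152, 0.0925 and 0.12).

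**Figure D5:**
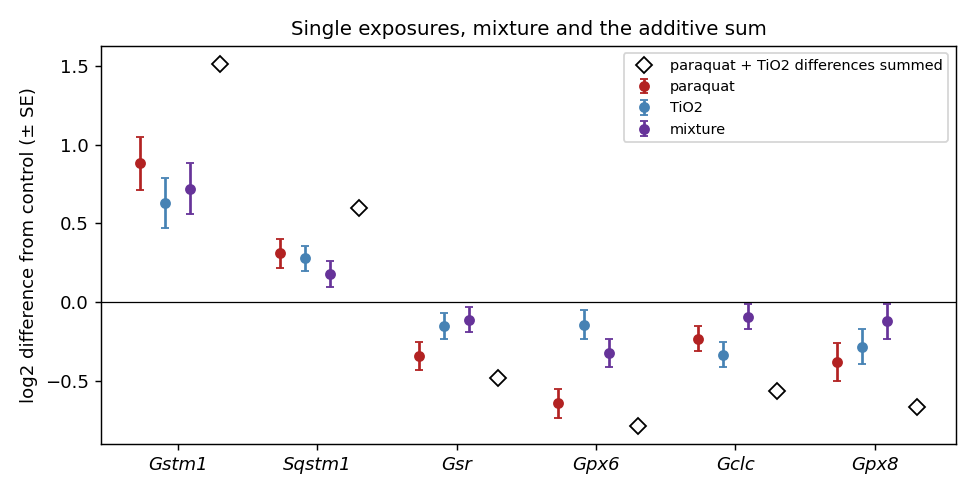
Log2 difference from control with its standard error under paraquat, TiO2 and mixture for the 6 genes whose interaction passed, with the sum of both single differences as a diamond. The genes were chosen by that interaction, which is the gap between mixture point and diamond, as for Gstm1 at 0.72 against 1.51.

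Other genes of the same pathways were read from 7 lists with 120 genes tested. In paraquat libraries 11 of the 120 passed (9.17%), against 10.4% of all genes, and in TiO2 libraries 8 did (6.67%), against 6.4%. These shares are close to the background. In mixture libraries 0 of the 120 passed in limma, against 1.19% of all genes, and edgeR and DESeq2 also called 0. Unadjusted limma p was under 0.05 there for 8 of the 120, against 12.2% of all genes. Among 12 regulators and partners of NRF2, 1 gene passed (8.33%), and it fell in both single exposures. It was Cul3, the scaffold of the ligase that KEAP1 directs at NRF2, which averaged 939 ± 92.6 in paraquat (SD, n = 3), 995 ± 172 in TiO2, 1240.0 ± 51.4 in mixture and 1275 ± 133 in control libraries (SD, n = 4 each). Cul3 fell by 0.44 in paraquat and by 0.37 in TiO2 libraries (limma adjusted p = 0.0152 and 0.0311). The TiO2 call was lost with the GC trend removed and without control 1, 3 or 4 or TiO2 2 or 3, with adjusted p up to 0.137 over these settings. The paraquat call was lost without paraquat 1 (0.0949).

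Of 20 selenoprotein genes and genes of selenocysteine synthesis, 5 rose and 1 fell in paraquat libraries, and 2 rose and 1 fell in TiO2 libraries. This is 30% of the list in paraquat and 15% in TiO2 libraries, against 10.4% and 6.4% of all genes. The list leaves out the selenoproteins described above, Gpx1, Gpx3, Gpx4, Txnrd1 and Txnrd2, none of which passed in paraquat or TiO2 libraries. The shares therefore hold for the listed genes and not for all selenoprotein genes. With the GC trend removed, the calls in the list numbered 4 in paraquat and 2 in TiO2 libraries. Selenow, a small selenoprotein, rose by 0.41 ± 0.09 in paraquat and 0.34 ± 0.09 in TiO2 libraries (limma adjusted p = 0.00856 and 0.0212). Selenom, of the endoplasmic reticulum, rose by 0.50 ± 0.10 in TiO2 libraries (limma adjusted p = 0.00412), and Selenof, also of that compartment, fell by 0.38 there (adjusted p = 0.00843). In paraquat libraries Selenof fell by 0.37, Selenon rose by 0.47 ± 0.11 and Scly, selenocysteine lyase, by 0.79 ± 0.21 (limma adjusted p = 0.0137, 0.0121 and 0.017). These paraquat calls were lost without paraquat 1 for Selenow (adjusted p = 0.0501), without paraquat 3 for Selenof (0.0589), and without paraquat 1 or 3 for Selenon and Scly (up to 0.0606 and 0.0676), and that of Selenon also with the GC trend removed. The other paraquat risers were Selenom (0.36 ± 0.11) and Eefsec, an elongation factor for selenocysteine (0.38 ± 0.12), with limma adjusted p of 0.0348 and 0.0418. Both were lost with the GC trend removed, Selenom without control 1, control 4, paraquat 1 or paraquat 3, and Eefsec without each single library but control 2, with adjusted p up to 0.296 and 0.254. The TiO2 calls of Selenom and Selenof were kept throughout, and that of Selenow was lost without control 1 or TiO2 3 and with the GC trend removed (up to 0.0857).

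Each of the remaining lists had at most 3 limma calls in an exposure. Of all genes, 10.4% were called in paraquat and 6.4% in TiO2 libraries. Of the other glutathione genes 3.57%, of the detoxification genes 6.25% and of the NADPH list 8.33% were called in paraquat libraries. In TiO2 libraries these shares were 0%, 0% and 8.33%. Among 28 other glutathione genes Mgst1, a microsomal transferase, fell by 0.49 in paraquat libraries (limma adjusted p = 0.0217), and among 16 detoxification genes Taldo1, transaldolase, rose by 0.40 ± 0.11 there (adjusted p = 0.0268). Both were lost with the GC trend removed and without control 4, paraquat 1 or paraquat 3, Mgst1 also without control 1 and Taldo1 without control 3 (adjusted p up to 0.084 for Mgst1 and 0.113 for Taldo1). Among 12 genes of NADPH supply and methionine repair, Nnt, the mitochondrial transhydrogenase that makes NADPH, fell by 0.44 in paraquat libraries and by 0.50 in TiO2 libraries (limma adjusted p = 0.0276 and 0.0102). Nnt averaged 167 ± 22.0 in paraquat (SD, n = 3), 159.5 ± 18.4 in TiO2, 196 ± 27.9 in mixture and 226 ± 18.15 in control libraries (SD, n = 4 each). The C57BL/6J strain, used in all 4 groups, is known to carry a deletion within Nnt. Its paraquat call ended when control 1, control 3, paraquat 1 or paraquat 2 was left out (limma adjusted p up to 0.145), and its TiO2 call was kept throughout. Among 13 oxidant sources, 1 fell in paraquat libraries (7.69%, against 10.4% of all genes). In TiO2 libraries 2 fell and 1 rose (23.1%, against 6.4% of all genes). Maoa fell by 0.38 in paraquat libraries, and Maob by 0.45 in TiO2 libraries (limma adjusted p = 0.0382 and 0.0465). These monoamine oxidases release hydrogen peroxide as they break down amines. Cybb, the phagocyte NADPH oxidase, had 3.29 ± 1.23 in TiO2 and 10.8 ± 3.27 in control libraries (SD, n = 4 each) and fell by 1.47 (limma adjusted p = 0.0371). Cyb5r3, a cytochrome b5 reductase, rose by 0.42 ± 0.13 in TiO2 libraries (adjusted p = 0.0469). These 4 calls were each lost with the GC trend removed and without several single libraries of both groups, with adjusted p up to 0.233 for Maoa, 0.167 for Maob, 0.123 for Cybb and 0.167 for Cyb5r3. Among 19 genes of iron and metal handling limma and edgeR called 0 in each exposure. DESeq2 called 2 in paraquat libraries and 0 in TiO2 and mixture libraries. Unadjusted limma p was under 0.05 for 4, 2 and 4 of the 19 in paraquat, TiO2 and mixture libraries. Of all genes, 26.6%, 23.3% and 12.2% had such a p there.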

How the data were processed

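Striatal RNA libraries were made with a Lexogen SENSE total RNA kit and sequenced on an Illumina NextSeq500, per the labels' protocols. Per the submitters' processing notes, the build was mm10 and the tools included DESeq2 (version 2.1.8.3) and Bowtie2 (version 2.3.2.2). The values are a normalised signal, which the authors deposited after dividing the reads of a gene by a size factor of its library. Whole reads were recovered from these steps within a tolerance of 0.001, and the recovery is claimed for 11 of the 15 libraries, since the steps of the other 4 lie near 1. Of 15569 genes, 15556 passed edgeR's filter on low counts, and 13 did not.

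Differences were tested with limma 3.58.1 (R 4.3.3) on log2(value + 1), with a trended and robust prior over all 15 libraries and group means, and Benjamini-Hochberg adjustment over all genes tested at a threshold of 0.05. The fit was tested on simulated counts, where it missed most changes of small size. Alternatives were edgeR 4.0.16 and DESeq2 1.42.0 on recovered reads, pseudocounts of 0.5 and 10, no filter, a mean of at least 100, other scalings, a GC correction, a replicate block, only the groups compared, and each library left out. Symbols were matched to GENCODE M21 (GRCm38), and promoters came from RefSeq. The 21 pairs of replicate libraries differed by more than sampling noise (chi-square over its degrees of freedom 3.01 to 25.1), so none was merged.

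The genes, and the lists set beside them, were chosen with earlier results of these data known. Values are given in full for each gene called in any of the 7 comparisons, for a fixed set of genes of the pathway, and for the 3 genes of smallest p where a comparison had none called. Counting is not known to use strand, and exons of 13 of the 46 genes overlap a gene on the other strand.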

Additional observations from a re-analysis of the deposited data

Results flagged for a closer look

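Among the 26 genes given most detail, 78 groups of 4 libraries were examined for a library far from the other 3, and 4 stood apart, where chance alone gives about 1 in 20. Nfe2l2 had 262.8 normalised reads in control 3, against 221.7 to 228.1 in the other controls. Sod1 had 657.4 in control 2, against 503.3 to 525.6, and Txnrd1 had 383.9 in control 2, against 425.8 to 433.0. Hmox1 had 79.19 in mixture 2, against 96.66 to 99.02 in the other mixture libraries. None of these 4 genes passed in any comparison in limma.

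The interaction term passed for 6 genes, in each with the opposite sign to both single differences. The labels give no dose, and the same control libraries enter these terms, so it is not read as an effect of adding paraquat. The interaction on the log2 scale was 0.47 for Gclc, 0.46 for Gpx6, 0.54 for Gpx8 and 0.37 for Gsr, and it was −0.41 for Sqstm1 and −0.79 for Gstm1. This is 6 of 46 genes, against 11.8% of all genes. The interaction of Gclc was kept without each library and under each alternative, and the other 5 were each lost without at least 1 library.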

How the results depend on the processing

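With a GC trend removed, 3 of the 46 genes passed in paraquat libraries in place of 5, all of them among those 5. In TiO2 libraries 2 passed in place of 4, where Gclc kept its call and Fth1 gained one. The mixture against control gave 1 gene, Gstm1. With the GC trend removed the mixture again gave 1, but this was Fth1, and Gstm1 was lost. It gave 2 with only the groups compared, Gpx6 and Fth1 without Gstm1, and 3 with DESeq2. Paraquat against TiO2 gave 0, and 1 with DESeq2, which was Gpx6. With each library left out in turn, the calls were 2 to 6 in paraquat, 1 to 5 in TiO2 and 0 to 1 in mixture libraries, 0 to 1 for paraquat against TiO2 and 2 to 7 for the interaction. Mixture against paraquat and mixture against TiO2 stayed at 0 under each setting run. Of the 10 calls against control, 3 were kept under each alternative and without each library: Gpx6 and Gstm1 in paraquat and Gclc in TiO2 libraries. Over the 26 genes given most detail, 1519 alternative values were computed for the differences from control. The main fit gave 78 such differences, of which only 10 were called. Of the alternative values, 1361 kept their direction and their status, whether called or not called, so this is not a count of calls kept. A call was lost in 51 and gained in 32, 75 uncalled values changed sign, and 0 called values changed direction. Over all genes, counts of calls without single libraries ran from 665 to 1754 in paraquat, 467 to 1397 in TiO2 and 52 to 164 in mixture libraries, against 1617, 996 and 185.

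Replicate numbers did not pair the libraries. Of 21 same-numbered pairs from different groups 8 correlated above 0.1 (range −0.19 to 0.27), 63 pairs with different numbers ran from −0.34 to 0.34, and 4 of 15 libraries correlated best with one of their own number. With a replicate block the mixture gave 2 genes. With the block and the GC correction together it gave 3, Cat, Gpx6 and Fth1, and Gstm1 was lost. Under both together, paraquat against TiO2 gave 1 and the interaction gave 3 in place of 6. Under the block, Gpx8 in paraquat libraries and the interaction of Gsr were lost, and calls were gained for Cat and Prdx1 in paraquat (adjusted p = 0.0109 and 0.025), Fth1 in TiO2 (0.0408), Gpx6 in mixture libraries (0.0423) and the interaction of Prdx1 (0.0343). Low genes such as Txnrd2, Nqo1 and Gpx4 limit what depth can show.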
